A study of Sus scrofa with 30 samples.

Results

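The proteasome and respiratory complex I genes are 75 of the 18722 coding genes annotated on pig chromosomes 1 to 18. They were chosen by symbol alone: 39 begin with PSMA, PSMB, PSMC or PSMD and a number, and 36 begin with NDUFA, NDUFB, NDUFC, NDUFS or NDUFV and a number. Another 3 genes with such symbols, PSMD10, NDUFA1 and NDUFB11, lie on the X chromosome and were left out by the rule. The letters also caught PSMC3IP, a cofactor of meiotic recombination that is no proteasome subunit, NDUFA4, which is now placed in respiratory complex IV, and its paralog NDUFA4L2. PSMD5 and PSMD9 encode assembly chaperones of the proteasome. All of these genes were kept.

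The histone marks H3K4me3 (Abcam antibody ab8580) and H3K27me3 (Millipore antibody) were mapped by ULI-NChIP-seq, a native chromatin immunoprecipitation for very few cells, in 30 pig libraries that form 15 groups of 2. H3K4me3 was profiled in 4-cell embryos whose zygotes had been injected with siRNA against KDM5B and KDM5C (siKDM5BC) and in 8 untreated stages: oocytes at the GV and MII stages and IVF embryos at the 1-cell, 2-cell, 4-cell, 8-cell, morula and blastocyst stages. H3K27me3 was profiled in MII oocytes and in 2-cell, 4-cell, 8-cell, morula and blastocyst embryos. No library is labelled as injected with a control siRNA, so the untreated 4-cell embryos are what the knockdown is set against, and the labels do not say whether the 2 libraries of a group came from separate collections. The p-values below therefore measure only the spread between these libraries, which may be technical.

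The proteasome is the protease that degrades proteins tagged with ubiquitin. Its 20S core holds rings of alpha (PSMA) and beta (PSMB) subunits, and its 19S cap holds a base with a ring of ATPases (PSMC) and a lid (most PSMD). Complex I, the NADH dehydrogenase of the mitochondrial inner membrane, has a matrix arm that carries the flavin and the iron-sulphur clusters and a membrane arm that pumps protons. Both are used by nearly every cell. H3K4me3 marks the promoters of such genes in most tissues, and H3K27me3, the mark of the Polycomb complex, is typical of silent developmental genes. KDM5B and KDM5C are demethylases that remove H3K4me3. A mark at a gene is not a measure of its RNA, and no RNA was measured here.

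The deposited values are peak lists, so each value is a length in base pairs (bp). Covered length is the number of bp inside peaks within 5 kb of either end of a gene. Domain width is the width of the widest peak that meets the 1 kb on either side of an end, or 0 where there is none, and a gene with such a peak is called marked. The annotation used gives no strand, so both ends were used and the promoter was not singled out. The lists hold no read totals, so depth is unknown, and fewer cells carrying a mark and less of the mark per cell cannot be told apart.

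The libraries differed widely in how much was called. H3K4me3 peaks covered 31.0 Mb of the autosomes in untreated 4-cell replicate 2, 55.4 Mb in replicate 1, and 173.9 and 159.4 Mb in the siKDM5BC libraries. H3K27me3 peaks covered between 1.25 Mb (2-cell replicate 2) and 98.1 Mb (blastocyst replicate 2). Oocyte marker genes were marked by H3K4me3 in 10 and 8 of 10 annotated genes in the GV libraries, and trophectoderm markers in 9 and 9 of 10 in the blastocyst libraries. Neither list sets its stage apart, since oocyte markers were marked in 4 to 8 of 10 in the other libraries and trophectoderm markers in 6 to 9. Markers of cumulus and granulosa cells, which surround the oocyte, were marked in 3 to 7 of 10 in the 18 libraries, with a summed covered length of 5189 bp (1-cell replicate 1) to 22808 bp (siKDM5BC replicate 1). The part of such cells in the results was not tested.

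Most of these genes carried H3K4me3 at an end at every stage, and fewest did in MII oocytes. All 36 complex I genes were marked in every H3K4me3 library except GV replicate 2, with 34, and the MII libraries, with 28 and 33. Of the 39 proteasome genes, 31 were marked in MII replicate 1, the fewest, and 39 in blastocyst replicate 2 and in siKDM5BC replicate 1. A peak was at an end in all 18 libraries for 21 proteasome genes and 25 complex I genes, against 40.0% of all coding genes, and in at least 15 of 18 libraries for 35 and 36 of them, against 66.2% of all.

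What varied was the length covered by the mark. The median covered length of the proteasome genes, as the mean ± SD of the 2 library medians of a stage, was 2282 ± 800 bp in GV oocytes, 1066 ± 539 bp in MII oocytes, 3130 ± 1007 bp in 1-cell, 2550 ± 260 bp in 2-cell, 1686 ± 296 bp in 4-cell and 2419 ± 222 bp in 8-cell embryos, 3771 ± 146 bp in morulae and 3842 ± 161 bp in blastocysts. Complex I genes had 2151 ± 643, 1217 ± 398, 3262 ± 636, 3538 ± 153, 1744 ± 604, 2687 ± 245, 4369 ± 4.24 and 4945 ± 596 bp at the same stages (SD, n = 2 each). Both groups thus had little covered length in MII oocytes and 4-cell embryos and most in morulae and blastocysts. Domain width ordered the stages between otherwise. Its mean of 2 library medians was 1254 bp in 2-cell, 1118 bp in 4-cell and 1804 bp in 8-cell embryos for the proteasome, and 1737, 1145 and 1765 bp for complex I. The median over all coding genes was 2020 bp in GV and 1176 bp in MII oocytes. It was 2328 bp in 1-cell, 2454 bp in 2-cell, 1351 bp in 4-cell and 1593 bp in 8-cell embryos. Morulae had 2683 bp and blastocysts 2639 bp. For the other coding genes marked in at least 15 of 18 libraries, the 2 library medians were 3466 and 3100 bp in 2-cell embryos. Proteasome genes had 2733 and 2366 bp and complex I genes 3430 and 3646 bp there. In blastocysts these often-marked genes had 3575 and 3605 bp, against 3955 and 3728 bp (proteasome) and 4524 and 5367 bp (complex I).

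**Figure D1:**
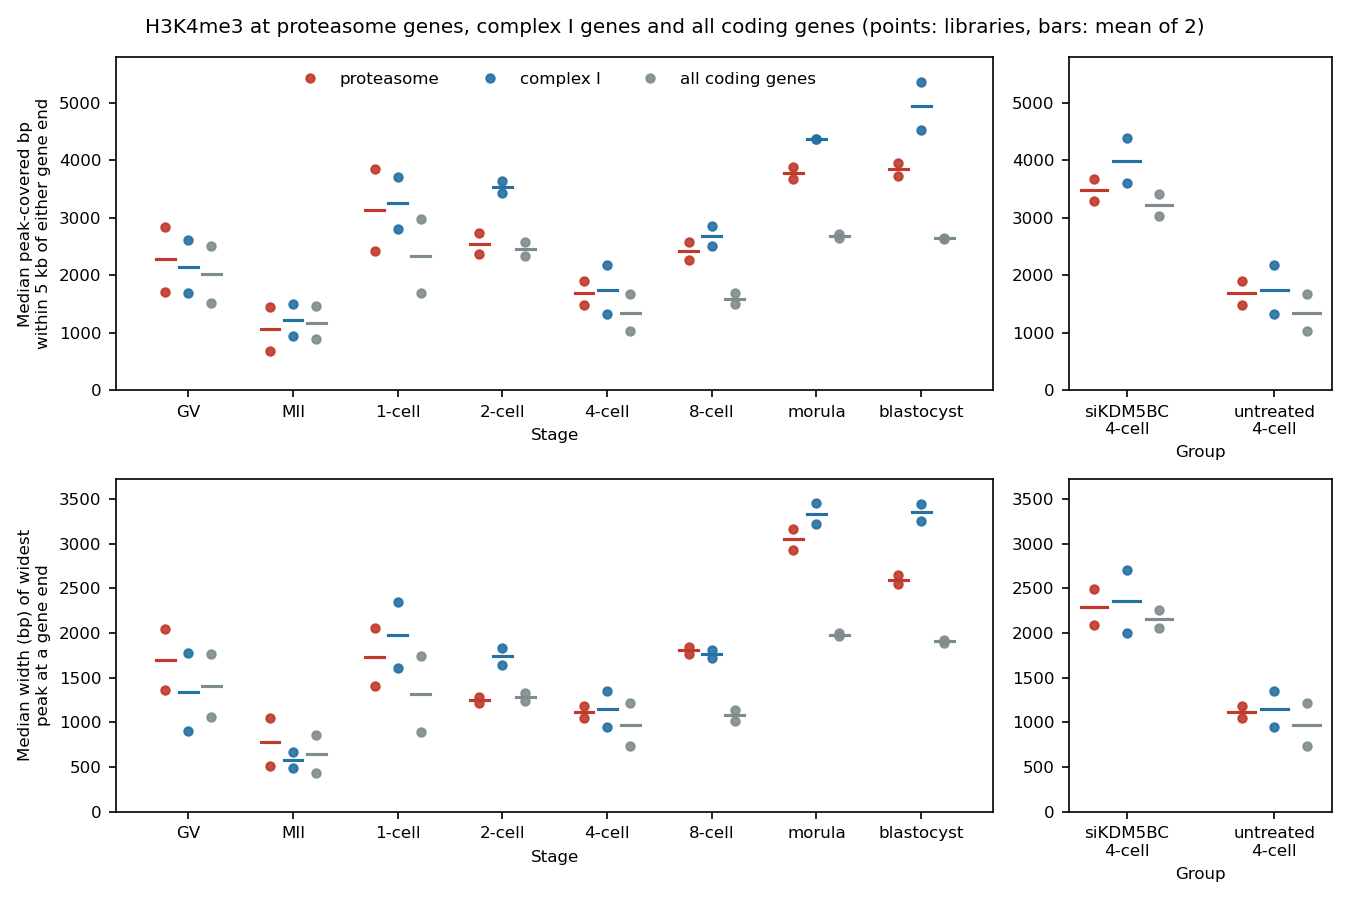
Median H3K4me3 covered length within 5 kb of the gene ends (top, bp) and median domain width at the ends (bottom, bp) of the proteasome genes (red), the complex I genes (blue) and all coding genes (grey); points are libraries and bars the mean of 2, with the stages from GV oocyte to blastocyst on the left and siKDM5BC beside untreated 4-cell embryos on the right. Both gene groups are low in MII oocytes (1066 and 1217 bp covered) and high in blastocysts (3842 and 4945 bp), where all coding genes have 2639 bp. The other coding genes marked in at least 15 of 18 libraries, not drawn, have 3575 and 3605 bp in the blastocyst libraries.

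The stage with the most covered length was late for most members. Mean covered length was highest in morulae or blastocysts for 22 of 39 proteasome genes (56.4%) and 25 of 36 complex I genes (69.4%), against 44.7% of all coding genes with any peak at the 8 stages. Proteasome genes peaked most often in morulae (18 genes) and complex I genes in blastocysts (15 genes). The lowest stage was MII, 4-cell or 8-cell for 38 of 39 proteasome genes and 31 of 36 complex I genes, against 71.2% of all. These are counts of stage means over 2 libraries and were not tested. The shares of all include genes marked in few libraries, and the genes marked in at least 15 of 18 libraries were not counted apart.

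From one stage to the next, members and all coding genes moved in the same direction at most steps. The median log2 difference in covered length was -0.77 for proteasome genes, -0.68 for complex I genes and -0.49 for all coding genes in MII against GV oocytes, and -0.68 for the coding genes marked in at least 15 of 18 libraries, which are the closer background. Both MII libraries lay below both GV libraries for 20 proteasome and 19 complex I genes (34.9% of all coding genes) and above them for none of the 75 (4.22% of all). In 1-cell embryos against MII oocytes the medians were 1.10, 1.17 and 0.61, and 0.86 for the often-marked genes, with 23 proteasome and 27 complex I genes higher without overlap (40.1% of all) and 0 and 0 lower (5.03% of all). Little moved in 2-cell against 1-cell embryos (-0.07, 0.12 and 0.09), with 1 and 8 genes higher without overlap (15.3% of all) and 10 and 6 lower (11.2% of all).

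In 8-cell against 4-cell embryos the medians were 0.59, 0.46 and 0.09, and 0.17 for the often-marked genes. There, both 8-cell libraries lay above both 4-cell libraries for 21 proteasome and 20 complex I genes, against 27.3% of all coding genes, and below them for 4 and 0, against 12.4%. In morulae against 8-cell embryos the medians were 0.70, 0.89 and 0.53, and 0.63 for the often-marked genes, with 26 proteasome and 28 complex I genes higher without overlap (59.2% of all) and 3 and 2 lower (9.05% of all). Blastocysts and morulae differed little in the median (-0.11, 0.03 and 0.00), with 6 proteasome and 13 complex I genes higher without overlap (26.3% of all) and 15 and 9 lower (26.2% of all).

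The confidence of the peaks did not follow the covered length. At a −log10 q of 3 or more, as the authors' caller gave it, an end peak was present for 0 and 3 proteasome genes and 0 and 0 complex I genes in the 2-cell libraries, although most were marked. In untreated 4-cell embryos, where covered length was smaller, such peaks were present for 33 and 19 proteasome and 34 and 23 complex I genes. MII and 1-cell libraries also held few, with 0 to 3 genes of either group. Blastocyst libraries held 38 and 38 proteasome and 36 and 36 complex I genes. The GV libraries split, with 33 and 6 proteasome and 32 and 14 complex I genes in replicates 1 and 2. The same gap was present over all coding genes, of which 1.45% and 2.70% had such a peak in the 2-cell libraries, against 71.8% and 72.1% in the blastocyst libraries.

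Complex I genes had more covered length than proteasome genes in most libraries, but not in all. The proteasome median was 409 ± 498 bp lower (mean difference -409 bp, SD over 18 libraries), was higher than that of complex I in 5 of 18 libraries, and the differences ran from -1639 to 242 bp. Domain width differed less, by -139 ± 359 bp with the proteasome higher in 8 of 18 libraries. Both differences are smaller than their spread over libraries. Joining peaks less than 3 kb apart moved the width difference to -764 bp, and members with no other gene end within 5 kb gave -418 bp.

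The surroundings of the genes also differ. Median gene length was 13365 bp for the proteasome and 7115 bp for complex I, against 20738 bp for all coding genes. Another coding gene's end lay within 1 kb for 13 proteasome genes (33.3%) and 20 complex I genes (55.6%), against 28.4% of all. Covered length as a share of the window, which is shorter for short genes, was lower in the proteasome by 2.55 ± 3.04 percentage points (difference -2.55, SD, n = 18 libraries). The proteasome share was higher in 4 of 18 libraries. A peak between neighbours was counted for each of them, and the part of neighbours in the results was not tested.

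Within the proteasome, the widest mean domains over the 16 stage libraries were those of PSMD8, PSMC3 and PSMC4, at 3636, 3344 and 3140 bp. PSMD8, a lid subunit (chr6:47289891-47297059), owed its place to one stage. At the 8-cell stage its domain was 12976 and 12709 bp wide, against 2318 and 1303 bp at the 4-cell stage, and in morulae it was 2670 and 7737 bp. The 8-cell libraries stand far above the 4-cell ones without overlap, and the end of GGN lies 511 bp away. PSMC3, an ATPase of the base, was widest in morulae, at 8594 and 5024 bp, and had 1147 and 1544 bp in 2-cell embryos.

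Among complex I genes, NDUFS6, NDUFB10 and NDUFA13 had the widest mean domains, at 4162, 3713 and 3412 bp. NDUFS6 encodes a small matrix-arm subunit (chr16:78993909-79000001), and its domain was 2103 and 3656 bp in 8-cell embryos, 8462 and 9038 bp in morulae and 10393 and 9445 bp in blastocysts. All 4 morula and blastocyst values lay above the 8-cell values. Domains of 5 kb or more were present at a mean of 5 proteasome and 5.5 complex I genes in morulae (12.8% and 15.3%, against 11.6% of all coding genes) and at 4 and 6.5 in blastocysts (10.3% and 18.1%, against 13.3%), which is near the share of all. NDUFB10 and NDUFA13 lie 1 bp from an end of RPS2 and 134 bp from an end of YJEFN3.

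The narrowest mean domains were those of PSMD6, PSMC6 and PSMB11 in the proteasome (366, 874 and 993 bp) and of NDUFA12, NDUFA8 and NDUFB7 in complex I (1051, 1140 and 1271 bp). PSMD6, a lid subunit (chr13:45506334-45529481), had no peak at an end in 13 of 18 libraries. A peak lay inside the gene 869 to 2541 bp from its high-coordinate end in all 18 libraries, which the end windows of 1 kb do not count in full. PSMA3, PSMB11 and PSMB6 had no end peak in 6, 5 and 4 libraries. NDUFA8, an accessory subunit of the membrane arm, ranged from 0 to 2031 bp over the 18 libraries with a median of 1162 bp.

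**Figure D2:**
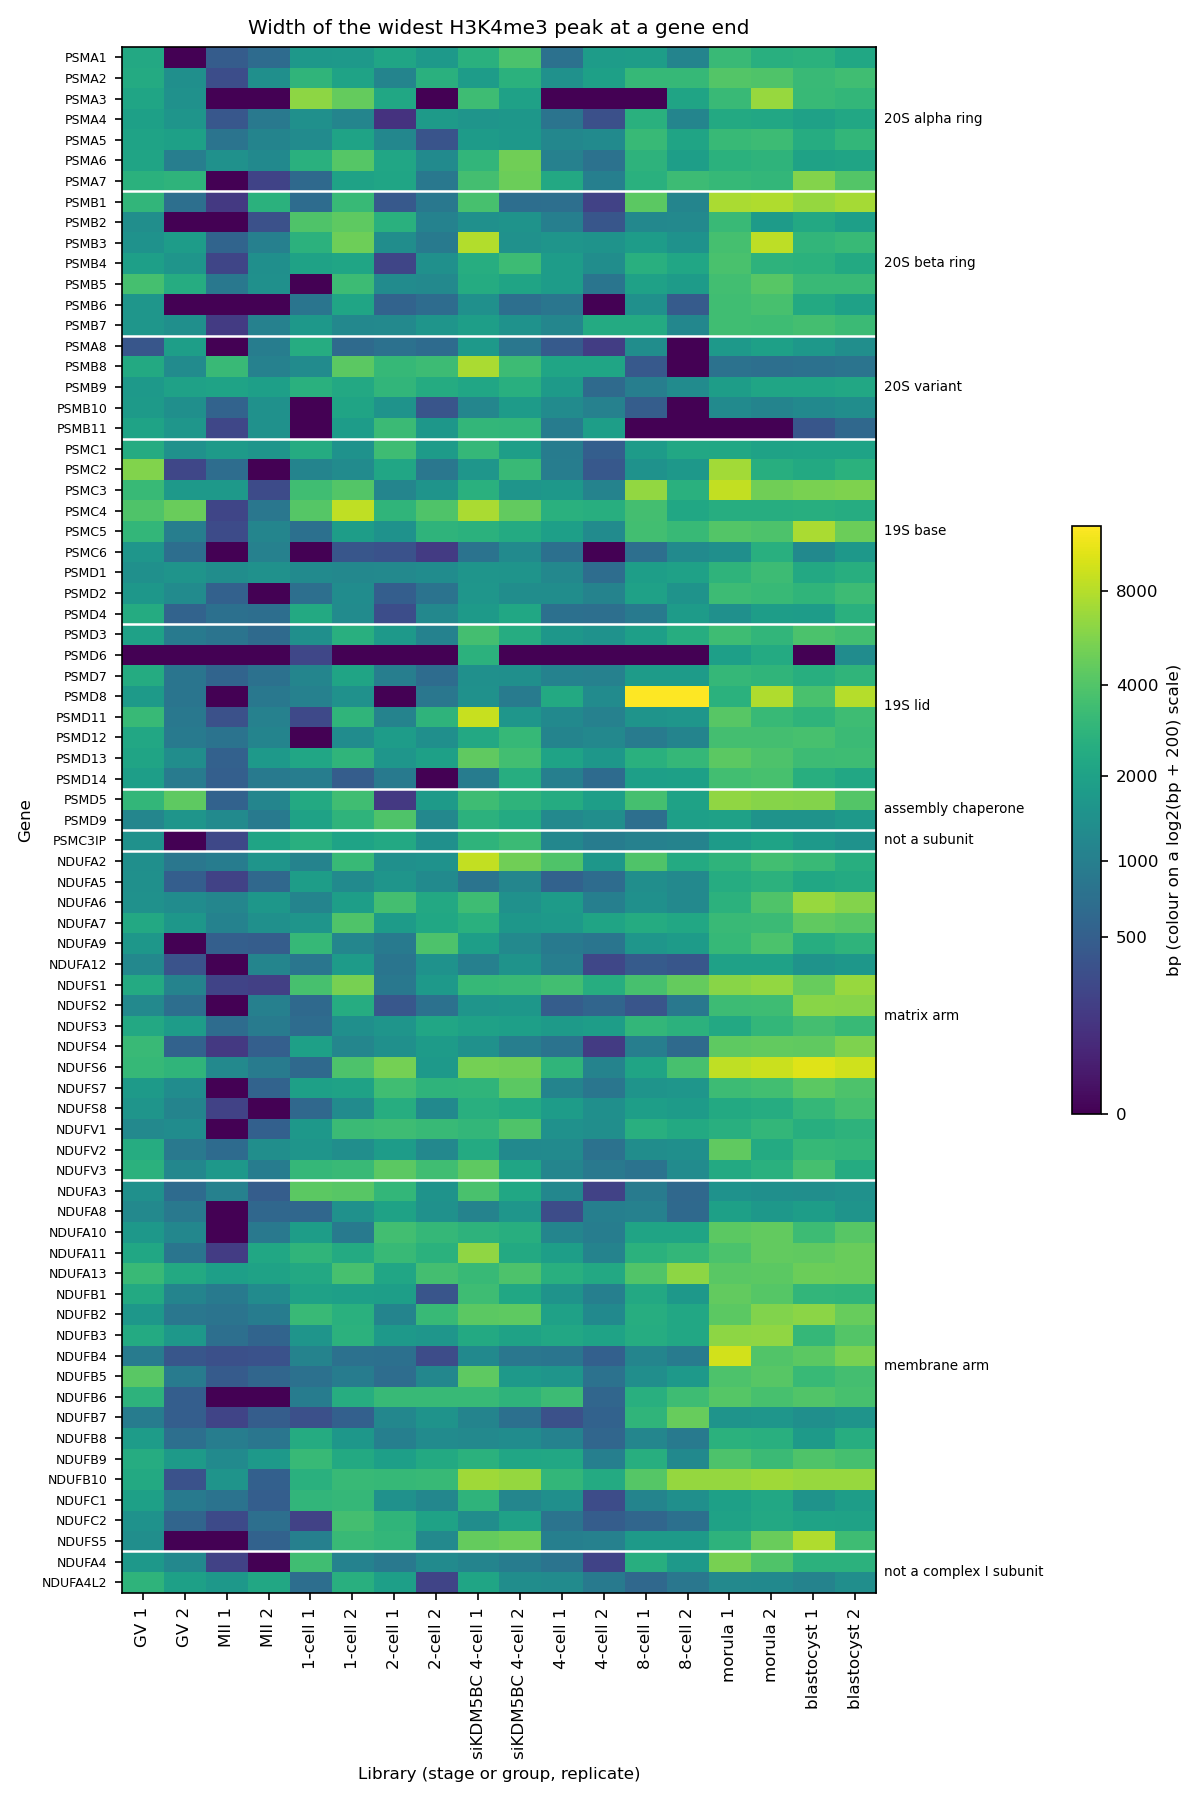
H3K4me3 domain width at the gene ends (colour, log2 of bp + 200) for the 75 genes ordered by role, in the 18 H3K4me3 libraries, with the siKDM5BC columns left of the untreated 4-cell columns. PSMD8 stands out in the 8-cell libraries (12976 and 12709 bp), NDUFS6 in morulae and blastocysts, and PSMD6 has no peak at an end in 13 of 18 libraries.

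Among the tissue-specific core subunits, PSMB8, PSMB10 and PSMA8 had narrower domains than the subunits they stand in for in 8-cell embryos and blastocysts, and PSMB9 did not. PSMB8, PSMB9 and PSMB10 replace the catalytic subunits PSMB5, PSMB6 and PSMB7 in the immunoproteasome, PSMB11 stands in for PSMB5 in the thymus, and PSMA8 is the alpha subunit of the testis, where it replaces PSMA7. The median domain of these 5 variants was 2912 and 1609 bp in 2-cell, 487 and 0 bp in 8-cell and 1254 and 1347 bp in blastocyst embryos. The 7 standard beta subunits had 1237 and 1069, 1971 and 1238, and 2896 and 3124 bp in the same libraries. The variants were thus the wider group in 2-cell embryos and the narrower one in 8-cell embryos and blastocysts, with no overlap between library medians at any of these 3 stages. In GV oocytes (1730 and 1585 against 1598 and 1393 bp) and 4-cell embryos (1290 and 1044 against 1161 and 812 bp) the medians of both were close. No test was made of this difference, and the beta subunits are more genes than the variants replace.

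PSMB8 (chr7:25058456-25061666) shows this pattern most clearly. Its domain was 3063 and 3296 bp in 2-cell, 2135 and 2130 bp in 4-cell, 441 and 0 bp in 8-cell, 757 and 718 bp in morula and 742 and 799 bp in blastocyst libraries. PSMB5 (chr7:76014576-76021922), the standard subunit with the same activity, had 1287 and 1220 bp in 2-cell, 1971 and 1776 bp in 8-cell, 3467 and 4231 bp in morula and 3175 and 3210 bp in blastocyst libraries. PSMB8 was wider than PSMB5 in both 2-cell libraries and narrower in all 8-cell, morula and blastocyst libraries. PSMB8 and PSMB9 lie on either side of TAP1, with ends 1106 and 144 bp from it.

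The other pairs were less uniform. PSMB10 had 487 and 0 bp in 8-cell and 1254 and 1347 bp in blastocyst embryos, against 2351 and 1173 bp and 3559 and 3214 bp for PSMB7. PSMA8 had 1347 and 0 bp in 8-cell and 1654 and 1381 bp in blastocyst embryos, against 2617 and 3319 bp and 5818 and 4061 bp for PSMA7. Both variants were narrower than their partners wherever both libraries are compared at these stages. PSMB9 overlapped with PSMB6 at both, with 996 and 1302 bp in 8-cell and 2134 and 2226 bp in blastocyst embryos, against 1413 and 461 bp and 2316 and 1973 bp for PSMB6. In MII oocytes PSMB9 had 2051 and 1917 bp, and PSMB6 had no end peak in either library.

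PSMB11 (chr7:76005609-76006728) was marked in 2-cell embryos, at 3238 and 1609 bp, had no end peak in 8-cell embryos and morulae, and had 413 and 626 bp in blastocysts. Its nearest end is 7848 bp from PSMB5, so the 5 kb windows of these genes overlap, although the end windows do not. NDUFA4L2 was also narrower than its paralog NDUFA4, with 613 and 853 against 2545 and 1721 bp in 8-cell and 1090 and 1372 against 2736 and 2743 bp in blastocyst embryos.

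**Figure D3:**
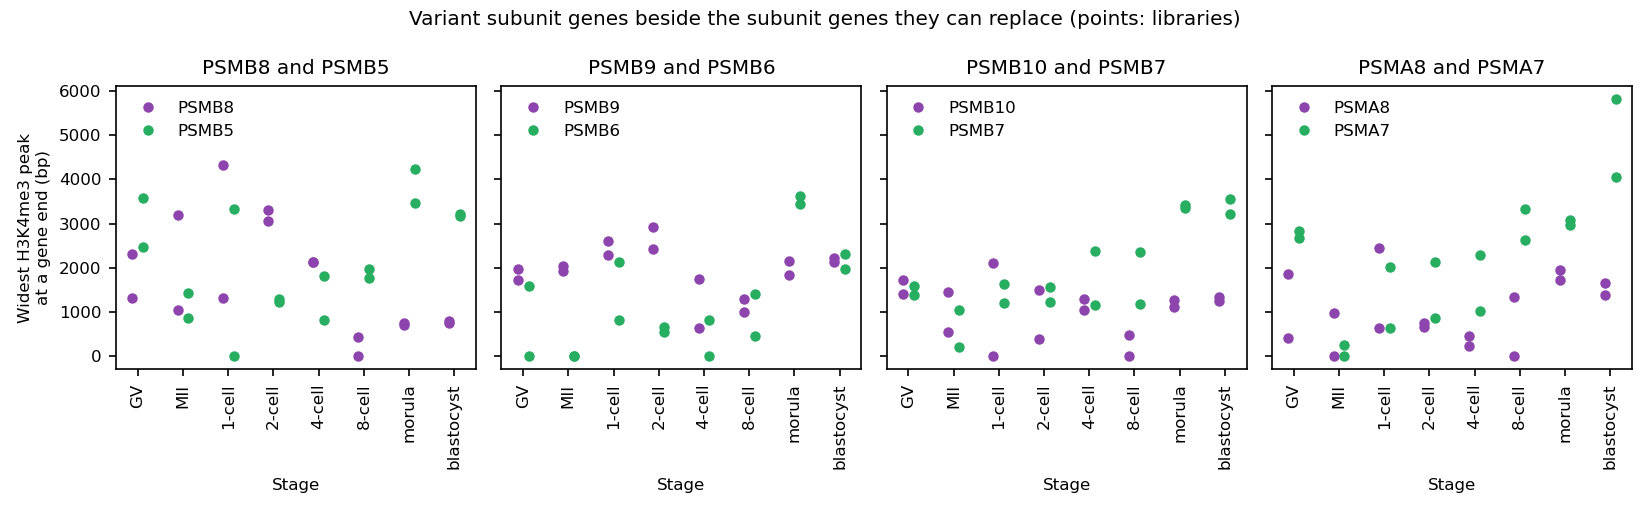
H3K4me3 domain width (bp) by stage for 4 pairs of a tissue-specific core subunit and its standard counterpart. The pairs are PSMB8 and PSMB5, PSMB9 and PSMB6, PSMB10 and PSMB7, and PSMA8 and PSMA7, and points are libraries. PSMB8 is above PSMB5 in 2-cell embryos (3063 and 3296 bp against 1287 and 1220 bp) and below it from the 8-cell stage on.

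Knockdown of KDM5B and KDM5C addresses what these demethylases do to the mark at the 4-cell stage. Covered length was higher in siKDM5BC than in untreated 4-cell embryos for 37 of 39 proteasome genes and all 36 complex I genes. The median log2 difference, on log2(bp + 200), was 1.05 for the proteasome and 1.06 for complex I, against 1.03 for all coding genes, which differs little from the members' medians. At a Benjamini-Hochberg adjusted p under 0.05 in limma, over 17527 genes, 10 proteasome and 11 complex I genes rose (25.6% and 30.6%), against 26.8% of all genes tested. The members' share is near that background and near the 27.3% of the other coding genes that are marked in at least 15 of 18 libraries. None fell in limma at the adjusted threshold, and 0.16% of all genes did. At an unadjusted p under 0.05 in limma none fell either (0 of 75), and the share of all genes by direction was not counted there.

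PSMB6, a catalytic beta subunit (chr12:52096009-52098164), had the largest difference among proteasome genes. Its covered length was 3034 and 2899 bp in the siKDM5BC libraries, against 829 and 0 bp in the untreated libraries. It rose by 2.80 ± 0.69 on the log2 scale (SE, limma, adjusted p = 0.0128), and the groups do not overlap. Not all of this lay at PSMB6 itself. The widest peak near its high-coordinate end met that end in siKDM5BC replicate 1 (1427 bp) and in untreated replicate 1 (829 bp). In siKDM5BC replicate 2 it lay outside the gene, 1220 bp from that end (1276 bp wide). PSMA6, of the alpha ring (chr7:64578247-64603351), had 4961 and 5098 bp in siKDM5BC against 1050 and 1307 bp in untreated embryos and rose by 1.93 ± 0.37 (limma, adjusted p = 0.00502). PSMD4, the ubiquitin receptor of the cap, had 2483 and 2957 bp against 730 and 717 bp (1.66 ± 0.58, limma, adjusted p = 0.0484). PSMD13, a lid subunit, had 6124 and 5526 bp against 2046 and 1615 bp (1.58 ± 0.48, limma, adjusted p = 0.0289). In all 4, both siKDM5BC values exceeded both untreated values. The called genes were spread over the roles: 2 of 7 alpha, 2 of 7 beta, 2 of 5 variant, 2 of 9 base and 2 of 8 lid genes.

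NDUFA10, an accessory subunit of the membrane arm (chr15:138999174-139031892), led the complex I genes. It had 9716 and 8059 bp in siKDM5BC against 1620 and 979 bp in untreated embryos, and rose by 2.63 ± 0.41 (SE, limma, adjusted p = 0.00272). NDUFV3, a matrix-arm accessory subunit (chr13:206111337-206123987), had 8808 and 7143 bp against 1145 and 1401 bp and rose by 2.47 ± 0.38 (limma, adjusted p = 0.00258). The groups lie far apart in both genes. NDUFC2 had 3785 and 3573 bp against 803 and 480 bp (2.23 ± 0.68, limma, adjusted p = 0.0300), and NDUFS4, an accessory subunit of the matrix arm, had 2888 and 2308 bp against 787 and 216 bp (2.12 ± 0.67, limma, adjusted p = 0.0341). By arm, 6 of 16 matrix-arm and 5 of 18 membrane-arm genes rose.

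Genes with special roles or against the shift had mixed values. PSMD8 had 5346 and 4777 bp in siKDM5BC against 6106 and 5871 bp in untreated embryos (log2 difference -0.24), lower in both libraries, and it is the 1 proteasome gene lower without overlap, with 0 of complex I and 0.614% of all coding genes. PSMB8 had 7472 and 6596 bp against 3058 and 2732 bp and rose by 1.22 ± 0.40 (limma, adjusted p = 0.0400). PSMC3IP had 6397 and 4919 bp against 1374 and 1295 bp, a difference of 1.92 ± 0.80 that did not pass (limma, adjusted p = 0.0865) although its groups do not overlap. Groups did not overlap, with siKDM5BC higher, for 30 of 39 proteasome and 32 of 36 complex I genes, against 71% of all coding genes.

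After centring each library on its median, NDUFA10 alone stayed higher (1.44, limma, adjusted p = 0.0179) and PSMD8 was lower (-1.42, limma, adjusted p = 0.0263). With peaks at a −log10 q of 3 or more, 6 members were higher and PSMB4 lower. The shares of all genes called at these settings are not given here. The 21 calls became 3, 4 and 3 without siKDM5BC replicate 1, siKDM5BC replicate 2 and untreated replicate 2, and 0 with a 1 kb window.

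The step from the 2-cell to the 4-cell stage, when the pig embryonic genome becomes active, shares the untreated 4-cell libraries with the knockdown comparison, so values of both are not independent. Covered length was lower in 4-cell than in 2-cell embryos by a median log2 difference of -0.48 for the proteasome and -0.80 for complex I, against -0.67 for all coding genes. In limma, 4 proteasome and 4 complex I genes fell, against 11.3% of all genes tested, a share near the members' own. None rose at the adjusted threshold, against 0.456% of all genes tested and 0.26% of the other often-marked genes. At an unadjusted p under 0.05 in limma none rose either (0 of 75), without a count over all genes by direction. Groups did not overlap, with 4-cell embryos lower, for 19 proteasome and 24 complex I genes (48.2% of all coding genes), and with 4-cell embryos higher for 2 and 0 (4.63% of all).

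PSMB6 had 829 and 0 bp in 4-cell against 4283 and 2661 bp in 2-cell embryos (-2.98 ± 0.69, SE, limma, adjusted p = 0.0179). Its widest nearby peaks in the 2-cell libraries lay outside the gene, 2021 and 2825 bp from its high-coordinate end. PSMB2, another beta subunit, had 1285 and 407 bp against 5014 and 4100 bp (-2.32 ± 0.56, limma, adjusted p = 0.0216). Neither gene's groups overlap. PSMA6 had 1050 and 1307 bp in 4-cell against 3617 and 2784 bp in 2-cell embryos (-1.30 ± 0.37, limma, adjusted p = 0.0390), and PSMB9 had 1736 and 648 bp against 2912 and 4223 bp (-1.53 ± 0.45, limma, adjusted p = 0.0425). Among complex I genes, NDUFC2 had 803 and 480 bp against 5794 and 5040 bp (-2.76 ± 0.68, limma, adjusted p = 0.0227) and NDUFA10 had 1620 and 979 bp against 6251 and 6630 bp (-2.18 ± 0.41, limma, adjusted p = 0.00796). NDUFV3 fell by 1.95 on the log2 scale and NDUFA7, of the matrix arm, by 1.35 (limma, adjusted p = 0.00877 and 0.0228). All 8 had both 4-cell values below both 2-cell values.

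The direction of this step depends on the peaks counted. With peaks at a −log10 q of 3 or more, 37 members were higher and 0 lower in 4-cell embryos. All coding genes shifted too: 1.45% and 2.70% had such an end peak in the 2-cell libraries, against 63.4% and 39.9% in the untreated 4-cell libraries. After centring each library on its median, PSMD8 was higher and 3 members, PSMB6, NDUFA10 and NDUFC2, were lower. The shares of all genes called at these settings are not given here, so the counts are not particular to the members. No member remained called without 4-cell replicate 2 or without 2-cell replicate 1, and 2 did without 2-cell replicate 2.

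**Figure D4:**
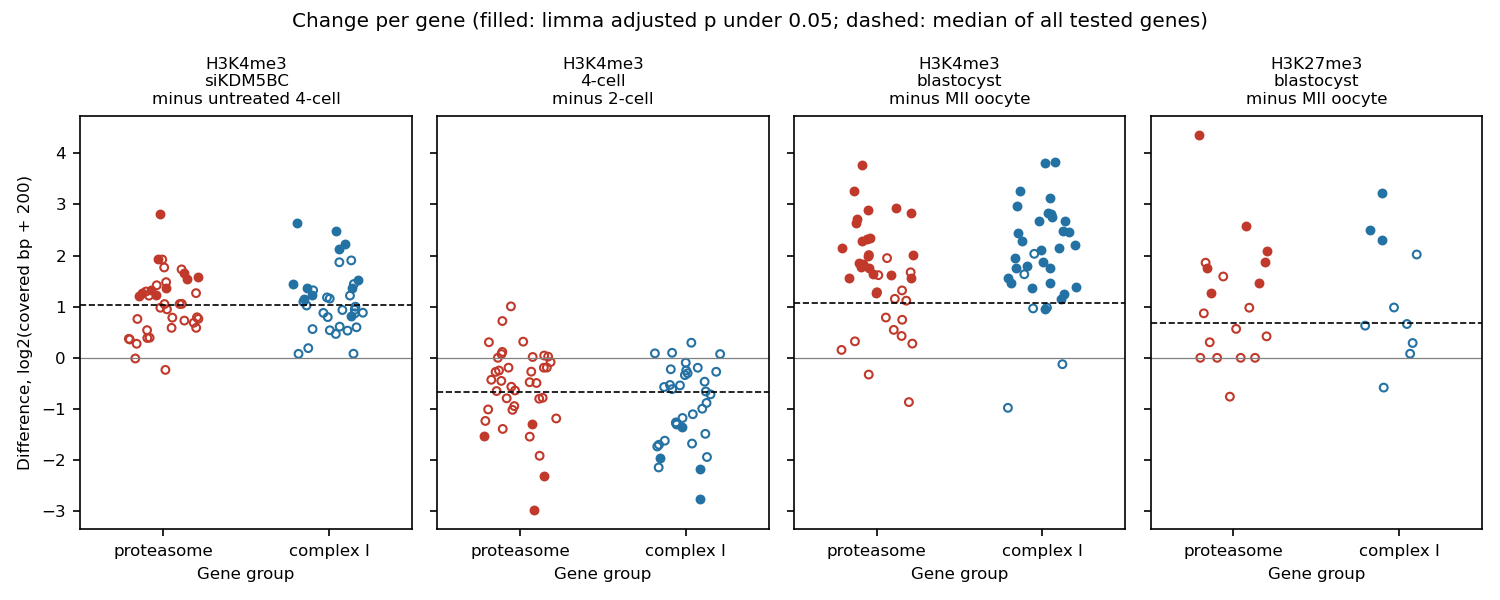
Log2 difference in covered length (log2(bp + 200), first-named group minus second) of each member tested in the 4 comparisons, by gene group. Filled points have a limma adjusted p under 0.05 and the dashed line is the median of all genes tested. In the H3K27me3 panel, 7 of the 10 filled points entered the fit only through the blastocyst libraries, and nothing is read from their calls. Members scatter about the dashed line in the siKDM5BC comparison (medians 1.05 and 1.06 against 1.03) and lie mostly above it for H3K4me3 in blastocysts against MII oocytes (1.67 and 2.00 against 1.07).

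Of the 4 comparisons tested, blastocysts against MII oocytes gave the one in which the member medians stood furthest above that of all genes. The median log2 difference in H3K4me3 covered length was 1.67 for the proteasome and 2.00 for complex I, against 1.07 for all coding genes and 1.25 for other coding genes marked in at least 15 of 18 libraries. In limma, 22 of 39 proteasome genes (56.4%) and 30 of 36 complex I genes (83.3%) rose, against 40.8% of all genes tested and 47.3% of the often-marked genes. None fell at the adjusted threshold, against 6.36% of all and 2.6% of the often-marked genes. At an unadjusted p under 0.05 in limma none fell either (0 of 75), without a count over all genes by direction. Groups did not overlap, with blastocysts higher, for 35 proteasome and 34 complex I genes, against 59% of all.

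The roles differed in their counts. In the matrix arm 15 of 16 genes rose (median 2.25) and in the membrane arm 14 of 18 (median 1.55). In the cap, 7 of 8 lid and 5 of 9 base genes rose, and in the core 4 of 7 alpha and 5 of 7 beta genes. Of the 2 assembly chaperone genes PSMD5 rose, and of NDUFA4 and NDUFA4L2 only NDUFA4 did. None of the 5 tissue-specific variants passed (median 0.32). The difference between roles was not tested.

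NDUFS1, the largest iron-sulphur subunit of the matrix arm (chr15:109413726-109451813), had 5109 and 7282 bp in blastocysts against 262 and 244 bp in MII oocytes. It rose by 3.80 ± 0.38 (SE, limma, adjusted p = 3.62e-05), and an end of EEF1B2 lies 88 bp away. NDUFS5 had 6585 and 6462 bp against 0 and 934 bp (3.82 ± 0.76, limma, adjusted p = 0.00161), and NDUFS4 had 4508 and 5346 bp against 200 and 505 bp (3.27 ± 0.67, limma, adjusted p = 0.00201). NDUFB4, of the membrane arm (chr13:139724145-139730492), had 7927 and 8356 bp in blastocysts against 833 and 695 bp in MII oocytes (3.12 ± 0.49, limma, adjusted p = 3.94e-04). All of these groups lie far apart. NDUFV1, which holds the site where NADH is oxidised, had 2789 and 2748 bp against 0 and 524 bp (2.96 ± 0.52, limma, adjusted p = 8.30e-04). NDUFS7, which carries the last iron-sulphur cluster before ubiquinone, had 5644 and 5443 bp against 455 and 1503 bp (2.44 ± 0.38, limma, adjusted p = 4.08e-04).

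In the proteasome, PSMA3 (chr1:187342231-187371149) had 4711 and 4763 bp in blastocysts against 0 and 456 bp in MII oocytes, and rose by 3.77 ± 0.60 (limma, adjusted p = 4.63e-04). PSMA7 (chr17:61566373-61571516) had 5818 and 4307 bp against 441 and 263 bp (3.26 ± 0.51, limma, adjusted p = 4.08e-04). Both are subunits of the alpha ring. The ATPases PSMC2 and PSMC5 had 5376 and 5157 bp against 685 and 375 bp (2.94 ± 0.83, limma, adjusted p = 0.0119) and 7115 and 4925 bp against 318 and 1132 bp (2.88 ± 0.51, limma, adjusted p = 7.95e-04). PSMD14, the deubiquitinase of the lid, had 4549 and 5245 bp against 1331 and 3217 bp, a difference of 1.15 that did not pass (limma, adjusted p = 0.0513) although its groups do not overlap.

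Only PSMB8 in the proteasome and NDUFA3, a membrane-arm subunit, in complex I were lower in both blastocyst libraries than in both MII libraries, against 13.2% of all coding genes. PSMB8 had 1652 and 1811 bp in blastocysts against 3185 and 3453 bp in MII oocytes (-0.87, limma, adjusted p = 0.0931), and NDUFA3 had 1367 and 1449 bp against 2368 and 3703 bp (-0.98, limma, adjusted p = 0.150). Neither passed the test as the files stand. After centring each library on its median, 25 members were higher, and the share of all genes called so is not given here. Both of these genes were then lower (-1.92 and -2.04, limma, adjusted p = 5.54e-04 and 9.92e-04). Relative to all coding genes the uncentred member medians were 0.60 and 0.92 above. The 52 calls became 34, 34 and 33 without blastocyst replicate 1, blastocyst replicate 2 and MII replicate 1.

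H3K27me3 was present near fewer complex I genes than proteasome genes. At the ends, over the 12 libraries together, the proteasome was near the share of all coding genes, but it was below that share in MII oocytes. No peak lay at an end in any of the 12 H3K27me3 libraries for 21 proteasome genes (53.8%) and 26 complex I genes (72.2%), against 52.1% of all coding genes. Within 5 kb, none was present for 14 (35.9%) and 24 (66.7%), against 28.1% of all. In blastocysts 10 and 11 proteasome and 6 and 6 complex I genes were marked, against 22.2% and 26.0% of all coding genes. In MII oocytes 2 and 2 proteasome and 1 and 0 complex I genes were marked, against 16.2% of all coding genes in replicate 1. In 2-cell embryos no member was, and 0.641% and 0.459% of all coding genes were.

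Both blastocyst libraries held an end peak for 7 proteasome genes (17.9%) and 3 complex I genes (8.33%), against 16.5% of all coding genes. They are PSMA8, PSMB3, PSMB8, PSMB11, PSMC1, PSMD1 and PSMD2, and NDUFA7, NDUFA10 and NDUFA13. All 10 also had H3K4me3 at an end in both blastocyst libraries, as had 84.5% of the 3088 coding genes with H3K27me3 there. In MII oocytes only PSMB8 and PSMB11 had an end peak in both libraries, against 11.3% of all coding genes, and in 4-cell embryos only NDUFA4L2 had, with 1821 and 1917 bp covered, against 2.55% of all coding genes.

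Blastocysts against MII oocytes were fitted for the 29 members with covered length in at least 2 libraries, 19 of the proteasome and 10 of complex I. Of these, 12 passed that filter only through the blastocyst libraries, among them 6 of the 7 proteasome genes and 1 of the 3 complex I genes with a limma adjusted p under 0.05, so nothing is read from these counts. All 10 calls were higher (35.3% of the 10068 genes tested) and none was lower, against 13.7% of all called lower at the adjusted threshold. At an unadjusted p under 0.05 in limma none was lower either (0 of 29), without a count over all genes by direction. Over all 75 members, both blastocyst libraries lay above both MII libraries for 11 proteasome and 4 complex I genes, against 23.1% of all coding genes, and below them for none, against 10.7%.

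PSMD14 (chr15:68107379-68208884) had the highest mean H3K27me3 covered length of the members in blastocysts, with 3639 and 4158 bp there against 0 and 0 bp in MII oocytes. Its high-coordinate end coincides with an annotated end of TBR1, a developmental transcription factor gene, at a distance of 0 bp. No H3K27me3 peak lay within 1 kb of either end of PSMD14 in any of the 12 libraries, and in blastocysts 1693 and 2775 bp lay around its low end and 1946 and 1383 bp around its high end. PSMC3IP had 835 and 1184 bp against 0 and 0 bp (limma, adjusted p = 4.02e-05), PSMB9 had 1289 and 287 bp against 0 and 0 bp, and PSMD11, a lid subunit, had 682 and 415 bp against 0 and 0 bp. PSMB3, PSMD1 and PSMA8 had 267 and 299, 429 and 283, and 244 and 830 bp in blastocysts and none in MII oocytes. Of these 6 genes beside PSMC3IP, which also had 676 and 463 bp in morulae, all passed the filter only through blastocysts, so no test is given for them, and no fold is given for any, since a list with no peak gives 0.

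Of the complex I genes, NDUFA10 had 3057 and 4286 bp in blastocysts against 1127 and 251 bp in MII oocytes and rose by 2.30 ± 0.54 (SE, limma, adjusted p = 0.00912). In blastocysts all of it lay around the high-coordinate end, where H3K4me3 covered 3314 and 4180 bp. NDUFA13, which passed only through blastocysts, had 1573 and 1739 bp against 0 and 0 bp, at the end that carried H3K4me3 (5487 and 5777 bp). This was not general. Of 17 members with H3K27me3 within 5 kb in both blastocyst libraries, 8 had more of both marks at the same end. In 3, PSMB9 among them, the marks lay more at opposite ends, and 6 were mixed. NDUFA7 had 1229 and 695 bp against 0 and 0 bp (limma, adjusted p = 0.0102), and an end of RPS28 lies 18 bp away.

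The tissue-specific variants differed among themselves. PSMB11 had 2198 and 1523 bp of H3K27me3 in blastocysts against 1519 and 1377 bp in MII oocytes (0.30, limma, adjusted p = 0.543), and none in 2-cell, 4-cell and 8-cell embryos. PSMB8 had 551 and 1420 bp in blastocysts against 2056 and 1345 bp in MII oocytes (-0.76, limma, adjusted p = 0.126), with overlapping groups. In MII oocytes PSMB8 also carried 3185 and 3453 bp of H3K4me3. After centring each library on its median, 10 members were called lower, and the share of all genes called so is not given here. Centring moved every gene down by the same amount, also genes such as PSMA5 and PSMD8, with 0 bp in MII oocytes and blastocysts. These lower calls are therefore not read as a loss of the mark.

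**Figure D5:**
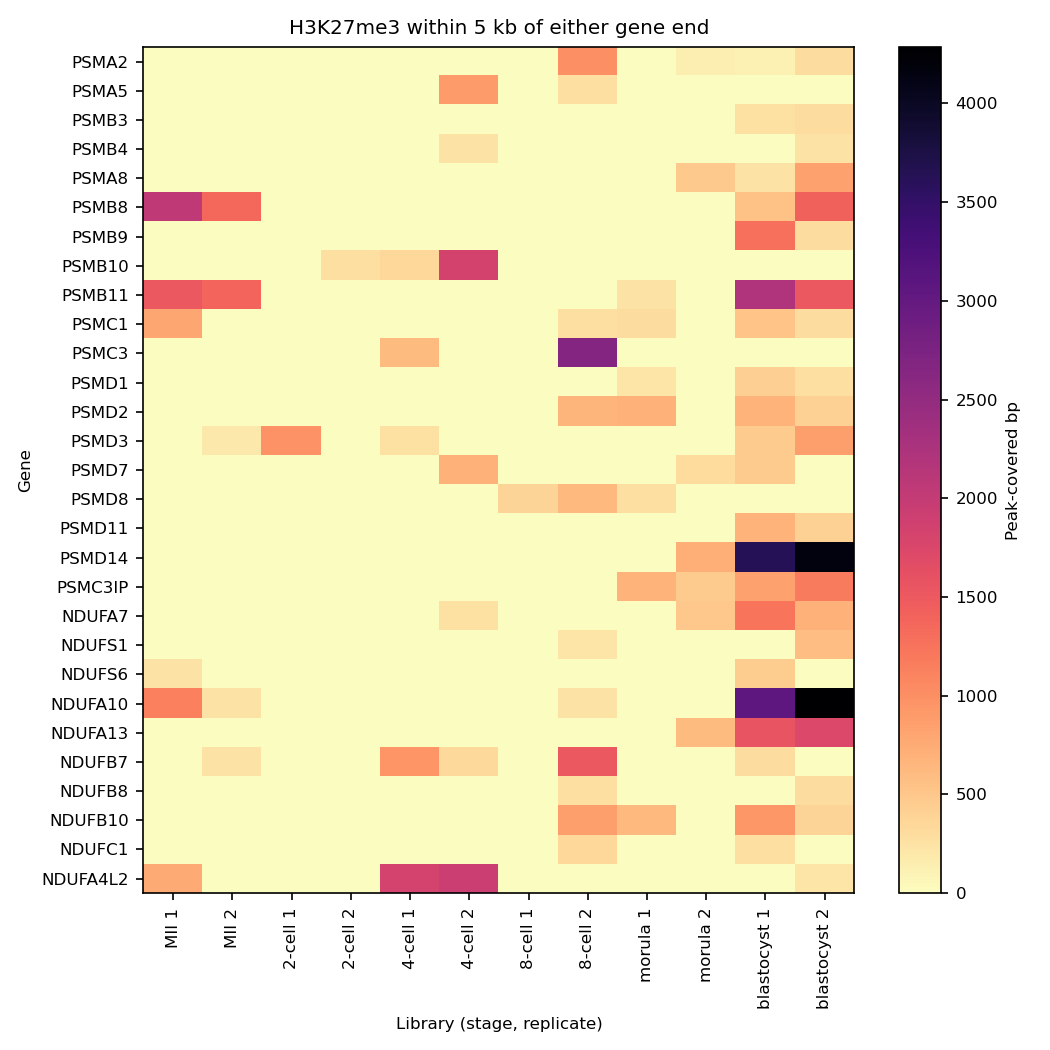
H3K27me3 covered length within 5 kb of the gene ends (colour, bp) for the 29 members that passed the filter, in the 12 H3K27me3 libraries. Most cells are 0 before the blastocyst stage, PSMD14 reaches 3639 and 4158 bp in blastocysts, and PSMB8 and PSMB11 carry the mark in both MII libraries.

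Other genes of the 2 complexes and their pathways, which the symbol rule did not catch, were read from the same fits. Most are not subunits, but ADRM1 and SEM1 of the proteasome list and NDUFAB1 of the complex I list are. Of 16 annotated activators, assembly factors and regulators of the proteasome, 3 rose in siKDM5BC against untreated 4-cell embryos in limma (UBE3C, PSMG3 and PSME2), against 26.8% of all genes tested, and 8 rose in blastocysts against MII oocytes (median 1.75), against 40.8%. Of 17 annotated complex I assembly and carrier genes, 5 rose in siKDM5BC embryos (26.8% of all), and 13 rose in blastocysts (median 2.14, 40.8% of all). The siKDM5BC counts are near or below the background. In 4-cell against 2-cell embryos none of either list passed, against 11.3% of all lower, with medians of -0.45 and -0.16. For H3K27me3 in blastocysts against MII oocytes, 1 of 7 and 1 of 4 genes tested were called higher, against 35.3% of all, and nothing is read from that. No gene of either list was called lower in any of these comparisons.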

How the data were processed

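Per the submitters' processing notes, reads were processed with Bowtie2 2.4.1 and MACS2 on the pig build susScr11; sources used here do not give the MACS2 version or other settings. The deposited files are 30 broad peak lists, 1 per library, and were used as positions. Each peak's fold enrichment, −log10 p and −log10 q and score are the authors' own deposited values; −log10 q and fold served only to filter peaks within a list. Genes came from the RefSeq table of Sscrofa11.1, which gives no strand.

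Covered length was tested on log2(bp + 200) with limma 3.58.1 (R 4.3.3, limma-trend), over all 18 H3K4me3 or all 12 H3K27me3 libraries, for genes with covered length in at least 2 libraries, with Benjamini-Hochberg adjustment at 0.05. Values were computed in Python 3.11.15 with pandas 2.3.3 and numpy 2.4.6, and the fits were tested on simulated data. An exact test of 2 libraries against 2 cannot go below p = 0.333. The members and lists were chosen with earlier results of these data known. Genes named are the top 4 called per direction, gene group and comparison, the 3 widest and 3 narrowest mean domains, genes with H3K27me3 at an end in both libraries of a stage, genes without H3K4me3 at an end in 4 or more libraries, and a list of special-role genes; PSMB4, NDUFA3 and the pathway genes were named after their values were seen. Alternatives covered windows, peak thresholds, joining, pseudocounts, filters, scaling, left-out libraries and the replicate block.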

Additional observations from a re-analysis of the deposited data

How the results depend on the processing

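Over 31 gene results and 507 alternative values, 352 kept direction and call, 134 lost the call and 21 changed sign. The cause was not tested unless stated. Shares of all genes called under the alternatives are not given, so the member counts below are not read as particular to the members. The proteasome minus complex I width difference of -139 bp became -764 bp with peaks under 3 kb apart joined and -418 bp over members with no other gene end within 5 kb, and ran from -171 to -108 bp without one replicate of every group (covered length -451 to -366 bp).

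The 21 members called in siKDM5BC against untreated 4-cell embryos became 0 with a 1 kb window, 7 with 2.5 kb, 7 at a −log10 q of 3 or more, 1 at a fold of 3.5 or more, all of it lower, 12 with joined peaks, 2 with centring, 2 with quantile normalization and 3 to 19 without one replicate. Among genes, PSMB6 turned to -0.0070 at the fold threshold, and NDUFS4 to -1.68 at the q and -0.39 at the fold threshold.

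The 8 members called in 4-cell against 2-cell embryos became 0 with a 1 kb window, 3 with 2.5 kb, 13 with 10 kb, 15 with joined peaks, 4 with centring, 4 with quantile normalization, 4 with only the 4 libraries compared and 0 to 11 without one replicate. The direction turned at a −log10 q of 3 or more (37 higher) and at a fold of 3.5 or more (4 higher). At the q threshold the log2 differences were 1.30 (PSMB2), 1.64 (PSMB9), 1.32 (PSMA6), 1.16 (NDUFC2), 1.28 (NDUFA10), 2.59 (NDUFV3) and 1.84 (NDUFA7). At the fold threshold they were 0.70 (PSMB6), 0.63 (PSMB2), 0.83 (PSMB9), 1.33 (PSMA6), 0.17 (NDUFC2), 0.11 (NDUFA10), 1.74 (NDUFV3) and 1.68 (NDUFA7).

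The 52 members called for H3K4me3 in blastocysts against MII oocytes became 27 with centring, 26 with quantile normalization and 33 to 54 without one replicate. The 10 called for H3K27me3 became 19 with a 10 kb window, 1 at the q and 3 at the fold threshold, 11 with centring, of which 10 were lower, 3 with quantile normalization and 6 to 10 without one replicate. PSMB9 turned to -0.020 and PSMD11 to -0.23 with centring, and NDUFA10 to -0.60 with a 10 kb window. Over members with no other gene end within 5 kb, which are fewer by construction, the 4 counts were 8, 5, 15 and 3. Centring removes the difference between library medians. This is not the median log2 difference over all genes, which was 1.03, -0.67, 1.07 and 0.69 in the 4 comparisons. It moved NDUFA10 from 2.63 to 1.44 in siKDM5BC against untreated embryos and from -2.18 to -1.36 in 4-cell against 2-cell embryos. For H3K27me3 it also moved genes with no peak in either group down.

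With the replicate number as a block, the 4 counts were 14, 7, 51 and 10, within 1.5 times of those without it. Same-numbered libraries did not deviate together: 0 of 36 H3K4me3 and 0 of 15 H3K27me3 group pairs had a correlation above 0.1, so the numbers are not taken to pair the samples. Use of only the end at the transcription start was not run, since the annotation used gives no strand. Peak lists hold no read totals, so a gene without a peak may lie below what a library could call.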
